A study of Gossypium arboreum with 12 samples.

Results

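A group of 124 probe sets rose moderately between the day of anthesis and 10 days post anthesis (dpa) in ovules of the fuzzy-linted line of Asiatic cotton and stayed near their starting level in ovules of the fuzzy-lintless line. A probe set is the group of short array probes that reads 1 transcript or a set of near-identical transcripts. The 124 were taken from 21791 probe sets left after 98 control probe sets were put aside. They were chosen by group means on the log2 scale, where 1 unit is a doubling. The mean at 10 dpa had to exceed that at 0 dpa by at least 0.8 in the linted line, the change between stages in the lintless line had to be under 0.4 in size, and the lintless line had to lie below the linted line at 10 dpa by 0.8 or more but by less than 1.585, the log2 of 3. The differences between groups given below are therefore a description of what was chosen, and no test of them is offered.

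The series compared whole ovules of 2 field-grown lines of Gossypium arboreum on Affymetrix cotton GeneChip arrays, with 4 groups of 3 biological replicates (12 arrays). FL, labelled wild type, bears fuzz and elongating lint; Fl, the mutant ANOI 1960, bears fuzz and no lint. Bolls were taken at 0 dpa, when fibre cells start to bulge from the seed coat, and at 10 dpa, when lint cells elongate. The 2 lines descend from a backcross and are not fully isogenic, so a difference between them may lie at any locus they do not share and cannot be told apart from one tied to lint. As the RNA came from whole ovules, fewer lint cells and less RNA per cell cannot be told apart either. The labels of FL 10 dpa replicate 1 conflict: the developmental stage is entered as 0 dpa, but the title and the source name place it at 10 dpa. The array was kept as FL 10 dpa. Its correlation across probe sets was 0.914 to 0.915 with the other FL 10 dpa arrays and -0.565 to -0.555 with those of FL 0 dpa.

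Cotton lint is made of single cells of the ovule's outer epidermis. Such a cell first bulges outward, then elongates by expanding its vacuole while primary wall is laid down and loosened, and later thickens its wall with cellulose. Ovules that form no lint lack these elongating cells at the later stage. Each deposited value is relative to the median of its own probe set over the 12 arrays, so that values can be compared between arrays within 1 probe set but not between probe sets, and no defining marker of ovule or fibre could be checked for presence.

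Across the 124 probe sets the rise in FL was about a doubling. It ran from 0.80 to 2.07 on the log2 scale with a median of 1.13 (2.18-fold), and its quartiles were 0.96 and 1.34. A rise of 2-fold or more was seen in 86 of them and a smaller rise in the other 38. Over all 21791 probe sets the median change in FL was -0.07.

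In Fl the same probe sets changed from -0.39 to 0.40, with a median of 0.03. Of the 124, 70 lay above 0 and 54 below, so that neither sign prevailed within the permitted range. A change within 0.1 either way was found for 33 and within 0.2 for 73. The median over all probe sets in Fl was -0.01.

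At 10 dpa Fl lay below FL by 0.82 to 1.55, with a median difference (Fl minus FL) of -1.06, or 2.09-fold. The difference was 2-fold or more for 83 of the 124. At 0 dpa the difference between lines, which follows arithmetically from the 3 differences that chose the probe sets, ran from -0.68 to 0.62 with a median of 0.02. It stayed within 0.2 either way for 81 probe sets, exceeded 0.4 for 10 and was below -0.4 for 4. The medians over all probe sets were 0.04 at 10 dpa and -0.02 at 0 dpa.

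**Figure D1:**
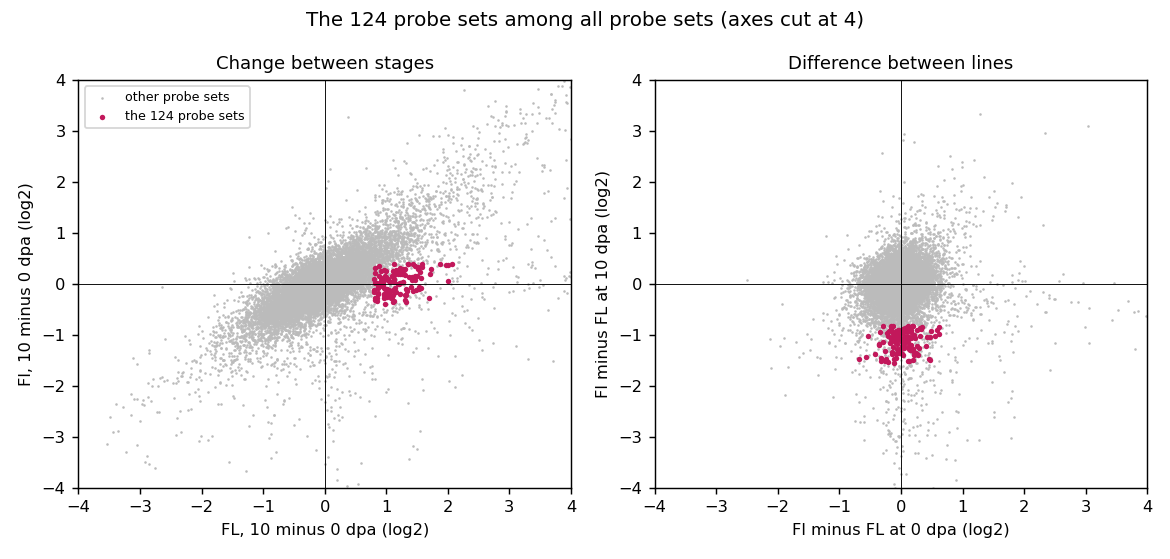
Each point is 1 probe set, the 124 in pink and the others in grey, with the change from 0 to 10 dpa in FL against that in Fl on the left and the Fl minus FL difference at 0 dpa against that at 10 dpa on the right, all in log2 units from means of 3 arrays and cut at 4. The 124 form a block to the right of the main diagonal cloud, with straight edges that the choice itself sets, and at 0 dpa they scatter on both sides of 0.

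Array by array, the median level of the 124 was 1.01, 1.07 and 1.05 on the FL 10 dpa arrays. It was -0.06, -0.12 and -0.15 at FL 0 dpa, and -0.07, -0.07 and -0.04 at Fl 0 dpa. At Fl 10 dpa it was -0.04, -0.01 and -0.04. The 3 FL 10 dpa arrays thus stood apart from the other 9, which lay close to one another whatever their line or stage.

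**Figure D2:**
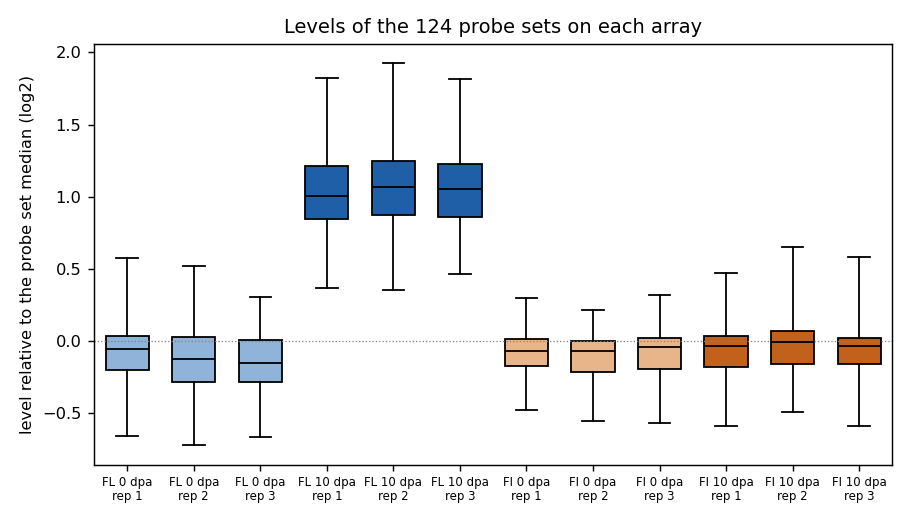
Boxes give the median and quartiles, and whiskers the lowest and highest, of the 124 levels on each of the 12 arrays, in log2 units relative to the median of each probe set. The FL 10 dpa boxes, with medians of 1.01 to 1.07, lie above the boxes of all other arrays, whose medians lie between -0.15 and -0.01.

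Separation held probe set by probe set. In each of the 124 the lowest FL 10 dpa array exceeded the highest of the other 9 arrays, which was so for 10.9% of all probe sets. As the choice used the same means, nothing is read from that contrast. The gap between those arrays ran from 0.12 to 1.43 with a median of 0.71, was over 1 for 20 probe sets and under 0.5 for 22. The probe set with the narrowest gap, a G. raimondii design with no name, had FL 10 dpa levels of 1.07, 1.64 and 0.51 against a highest other level of 0.39 at FL 0 dpa. The third FL 10 dpa array set this gap, and the other arrays of its group lay well above it.

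**Figure D3:**
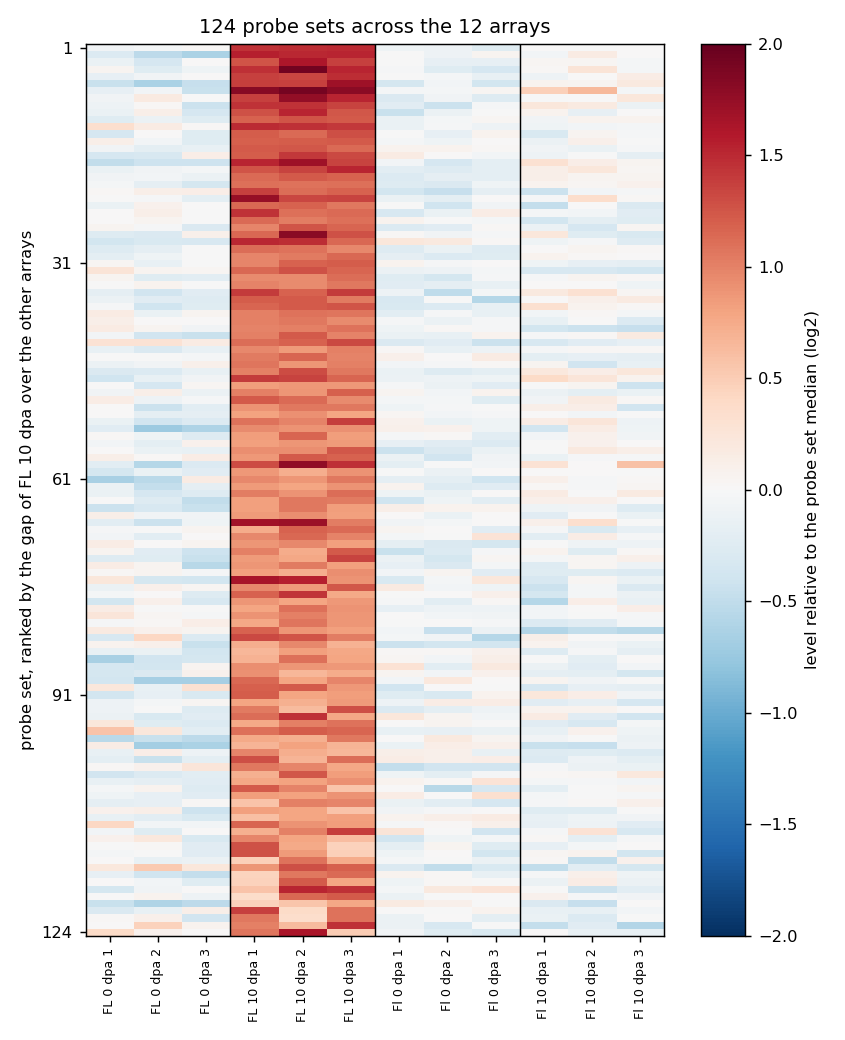
The 124 probe sets are ranked from the widest gap (top) to the narrowest (bottom) and shown on the 12 arrays, 3 for each group, with colour giving the log2 level relative to the median of the probe set. The FL 10 dpa columns are red throughout while the other 9 columns are pale, and the gap narrows from 1.43 to 0.12 down the plot.

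The widest gap belonged to GhiAffx.39089.1.A1_a_at, a G. hirsutum design for which no annotation was used here. Its levels at FL 10 dpa were 1.45, 1.48 and 1.50, and those on the other 9 arrays lay between -0.25 and 0.02. All replicate arrays of a group were close together, and its rise in FL was 1.50 (SE 0.0601, 2.83-fold). The difference between lines at 10 dpa was -1.47 (SE 0.0601).

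Among the remaining unnamed probe sets the largest rise in FL was that of Ghi.5444.1.S1_at. It stood at -0.16, -0.05 and -0.44 at FL 0 dpa and at 1.82, 1.91 and 1.81 at FL 10 dpa, a rise of 2.07 (SE 0.148, 4.19-fold). In Fl it was -0.05, -0.04 and 0.03 at 0 dpa and 0.47, 0.65 and -0.03 at 10 dpa. The Fl change of 0.38 (SE 0.148) lay just inside the permitted range and came from the first and second of the 3 Fl 10 dpa arrays, while the third remained at its 0 dpa level. At 10 dpa Fl was still 1.49 below FL.

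The next widest gap, 1.34, was that of an unnamed probe set whose levels at FL 10 dpa were 1.55, 1.51 and 1.52. At FL 0 dpa it was at -0.27, -0.52 and -0.63, below the Fl 0 dpa levels of -0.01, -0.11 and 0.06. Part of its rise of 2.00 in FL thus started from a level 0.45 lower than in Fl. The opposite case, with the lowest difference between lines at 0 dpa, had FL 0 dpa levels of 0.20, 0.52 and 0.22 against -0.29, -0.50 and -0.31 in Fl, a difference of -0.68. Its rise in FL, 0.81, was near the limit of the choice, and Fl lay below FL at both stages without overlap.

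Only 1 of the 124 has a description in the study's supplementary tables. Ghi.9176.3.A1_at is listed there as a member of the NAD(P)-binding Rossmann-fold superfamily, matched to Arabidopsis AT3G51680 in most tables. Enzymes of this fold bind a nicotinamide cofactor and carry out oxidations and reductions; one of the tables gives instead the locus of ABA2, which in Arabidopsis acts in the synthesis of abscisic acid, so that the identity of this probe set is not settled. Its levels were 0.22, -0.35 and -0.37 at FL 0 dpa and 1.65, 1.55 and 0.90 at FL 10 dpa. In Fl they were -0.30, -0.03 and 0.23 at 0 dpa and -0.33, 0.03 and -0.14 at 10 dpa. All FL 10 dpa arrays were above all others, the third by the least, with a gap of 0.67. The rise in FL was 1.53 (SE 0.215, 2.90-fold), the change in Fl was -0.11 and the difference between lines at 10 dpa was -1.51 (SE 0.215). Its spread between replicates was wide, with an SD of 0.41 (n = 3) at FL 10 dpa against a median of 0.14 over the 124.

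A further 6 of the 124 share a design cluster, the number in the probe set name under which related cotton sequences were grouped, with a probe set that those tables do describe. The tables were drawn up from large differences on these same arrays, so a large change of the described probe set is not independent. The name belongs to that other probe set and is not carried over.

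Ghi.6088.2.S1_at lies in the cluster of mitogen-activated protein kinase 3, which in Arabidopsis relays stress and defence signals. It was at -0.13, 0.12 and -0.33 at FL 0 dpa and at 1.28, 1.52 and 1.25 at FL 10 dpa. In Fl it was -0.45, -0.12 and -0.00 at 0 dpa and 0.07, -0.16 and 0.00 at 10 dpa. The FL 10 dpa arrays did not overlap those of the other groups, with a gap of 1.12 and a rise in FL of 1.46 (SE 0.137). Both described kinase probe sets rose more in FL, by 4.28 (Ghi.6088.2.A1_s_at) and 3.60 (Ghi.6088.1.S1_s_at). They also rose in Fl, by 1.14 (limma, adjusted p = 3.2e-05) and 0.66 (adjusted p = 0.0031), where the member changed by 0.16 (SE 0.137). The first of them is named for the opposite strand of the same sequence as the member.

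Ghi.3578.1.A1_at and the probe set for homeobox protein 40, Ghi.3578.1.S1_s_at, are likewise named for opposite strands of 1 sequence. Homeobox protein 40 is a homeodomain-leucine zipper transcription factor in Arabidopsis. The member stood at 1.28, 0.68 and 1.11 at FL 10 dpa and between -0.44 and 0.15 elsewhere, a rise in FL of 1.31 (SE 0.129) without overlap. In Fl it changed from 0.15, 0.10 and 0.13 to -0.28, -0.10 and -0.19. Those Fl stages did not overlap, although the change of -0.32 (SE 0.129) stayed within the limit of 0.4 and was not called (limma, adjusted p = 0.07). The described probe set rose by 2.50 in FL and fell by 1.10 in Fl (limma, adjusted p = 5.6e-08). Both probe sets thus rose in FL and had lower Fl means at 10 than at 0 dpa, the described one by more.

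Ghi.6496.3.A1_at shares a cluster with senescence-associated gene 21, a small protein of the late embryogenesis abundant family that in Arabidopsis responds to oxidative stress. It reached 1.04, 0.63 and 1.28 at FL 10 dpa from -0.10, -0.01 and -0.26, a rise of 1.10 (SE 0.133). In Fl it was -0.28, -0.20 and -0.11 at 0 dpa and 0.07, 0.07 and 0.01 at 10 dpa, and the difference between lines at 10 dpa was -0.93. The Fl stages did not overlap, but the change of 0.25 (SE 0.133) was not called (limma, adjusted p = 0.17). The described Ghi.6496.1.S1_a_at rose by 4.48 in FL and by 0.64 in Fl (limma, adjusted p = 0.00018).

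Gra.2459.3.S1_s_at is a G. raimondii design in the cluster of beta-galactosidase 2. Enzymes of that family remove galactose from polysaccharides of the cell wall. It stood at 0.37, 1.14 and 1.23 at FL 10 dpa, and between -0.12 and 0.09 on the other 9 arrays. The first FL 10 dpa array was far below the other FL 10 dpa arrays, so the rise of 0.93 had a wide error (SE 0.174). The described Gra.2459.1.A1_s_at rose in both lines, by 5.16 in FL and by 3.16 in Fl (limma, adjusted p = 1.5e-09), whereas the member changed in Fl by 0.04.

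Cluster Ghi.6417 held 2 of the 124 and was the only cluster with more than 1. Its described probe sets, Ghi.6417.3.S1_s_at and Ghi.6417.4.S1_s_at, have no homolog in the tables. Ghi.6417.3.A1_x_at was at -0.36, -0.66 and -0.66 at FL 0 dpa, 1.14, 0.79 and 0.98 at FL 10 dpa, -0.05, 0.22 and 0.01 at Fl 0 dpa, and 0.05, -0.06 and -0.01 at Fl 10 dpa. It had the highest difference between lines at 0 dpa of the 124, 0.62 (SE 0.110), with FL below Fl on all arrays. Ghi.6417.4.A1_s_at rose by 1.49 (SE 0.117) from -0.34, -0.32 and 0.13 to 1.21, 1.41 and 1.33, and its 0 dpa levels overlapped between lines. The described probe sets, named for the opposite strands, rose by 3.94 and 3.89 in FL. At 0 dpa both were higher in Fl, by 1.51 (limma, adjusted p = 2.1e-07) and 1.52 (adjusted p = 1.2e-06).

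**Figure D4:**
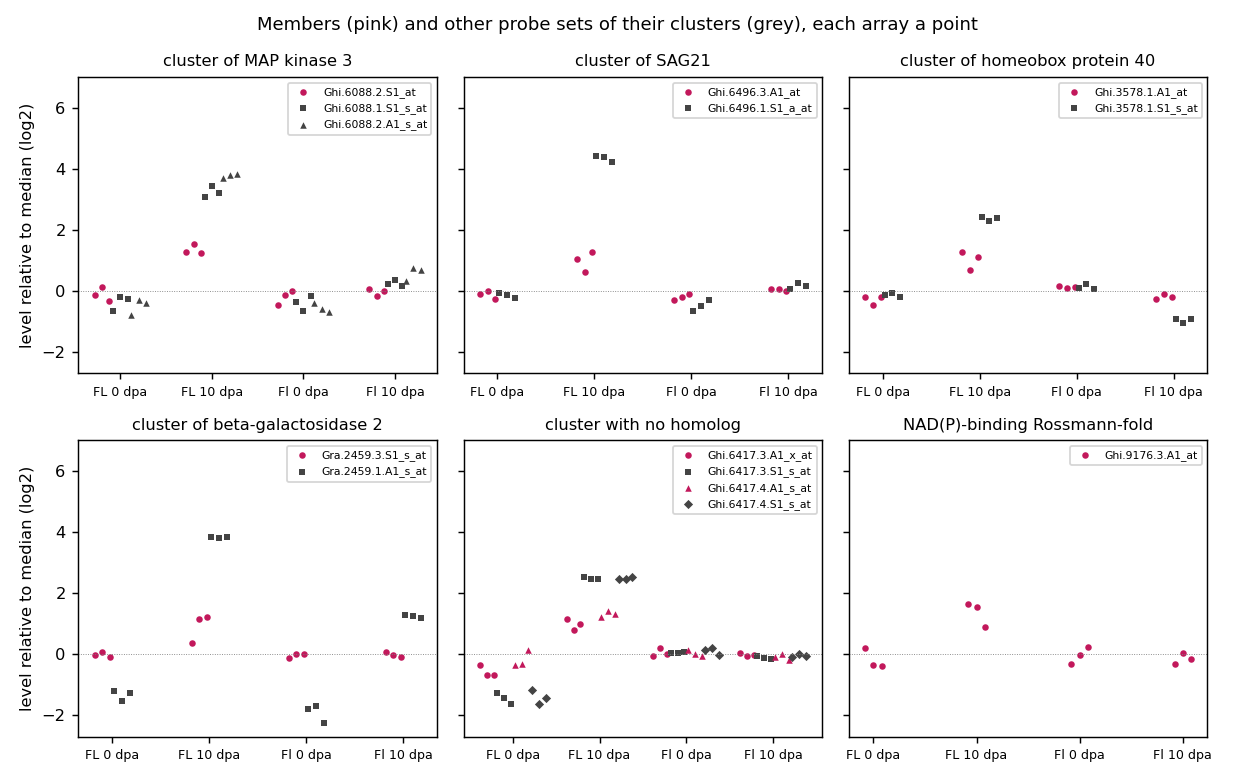
Each point is 1 array and each symbol 1 probe set, with members in pink, other probe sets of the same cluster in dark grey, the 4 groups along the x axis and the log2 level relative to the probe set median on the y axis. Each probe set is highest at FL 10 dpa. Between Fl 0 and Fl 10 dpa the described beta-galactosidase 2 probe set rose most, by 3.16. The described kinase probe sets rose there by 1.14 and 0.66, and that of senescence-associated gene 21 by 0.64. That of homeobox protein 40 fell by 1.10. Levels are relative within each probe set and are not to be compared between symbols.

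Other probe sets of a member's cluster, the described ones above included, were not themselves taken by the choice. In 34 clusters, 35 of the 124 had 52 such probe sets that were not members themselves. Of the 52, 12 rose by at least 0.8 in FL and 33 changed by less than 0.4, with a median change of 0.12 and a range from -1.06 to 5.16. In limma over all probe sets, 15 of the 52 (28.8%) were called higher in FL at 10 than at 0 dpa at an adjusted p of at most 0.01, against 17.5% of all probe sets, and 3 were called lower. At 10 dpa 14 (26.9%) were called lower in Fl than in FL, against 9.7% of all. Among these were the 7 described probe sets, all of them called in both comparisons and tabled for large differences on these arrays. Without them 8 of 45 (17.8%) were called higher in FL at 10 dpa, a share close to that of all probe sets, and 7 of 45 (15.6%) lower in Fl at 10 dpa. The median change in FL of the 45 was 0.07. Of the 45, 13 were named for the opposite strand of a member's sequence, and 1 of these 13 was called higher in FL at 10 dpa. The share of 17.8% thus pools opposite-strand probe sets with those of other sequences. Probes of 1 cluster can also take up the same transcripts where they read the same strand, so the cluster neighbours are not independent genes.

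For 17 members the array also holds a probe set named for the opposite strand of the same sequence. In 5 of these pairs the opposite-strand probe set rose in FL too, by 0.82 to 4.28. Of those 5, 4 were the described probe sets of the kinase, homeobox and Ghi.6417 clusters. Of the 13 opposite-strand probe sets without a description, 1 thus rose. In the other 12 pairs the opposite-strand probe set changed between -0.20 and 0.24 only, although the members of those pairs rose by 0.86 to 2.00. In most pairs the member rose by at least 0.8 and the opposite-strand probe set changed by less than 0.4.

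**Figure D5:**
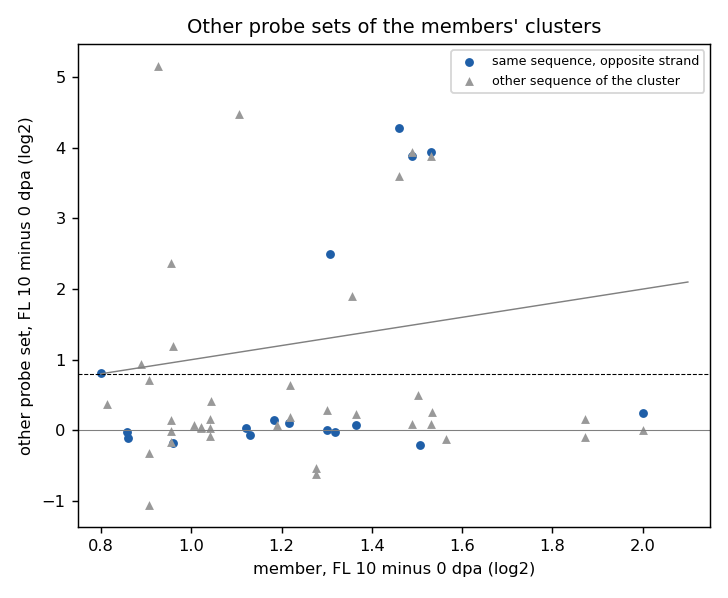
For each other probe set in a member's cluster, the change from 0 to 10 dpa in FL (y axis) is plotted against that of the member (x axis), both in log2 units, with circles for opposite strands of 1 sequence and triangles for other sequences. The dashed line marks a rise of 0.8 and the sloping line equal change; 5 circles lie above the dashed line, 4 of them described probe sets, and 12 lie between -0.20 and 0.24.

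Names of the 124 probe sets show where the array took their sequences from. GhiAffx designs made up 52 of them (41.9%, against 28.3% of all probe sets), Ghi designs 47 (37.9% against 43.2%), GraAffx designs 13 (10.5% against 14.3%) and Gra designs 12 (9.68% against 13.5%). Ghi stands for G. hirsutum and Gra for G. raimondii, so the G. arboreum RNA was read by probes of related species, and 0 of the 124 were GarAffx designs, made from G. arboreum, which are 67 (0.307%) of all probe sets, too few for this to be informative. The median rise in FL was 1.27 for Ghi, 1.11 for GhiAffx, 0.99 for Gra and 0.95 for GraAffx designs.

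Designs named for the S orientation numbered 85 (68.5%, against 57.5% of all) and those for the A orientation 39 (31.5% against 42.4%), with median rises of 1.13 and 1.12. Plain probe sets, marked _at, numbered 68 (54.8% against 52.4%), and those marked _s_at, whose probes match several transcripts, 50 (40.3% against 39.6%). The median rise was 1.13 for the former and 1.08 for the latter. Levels of the _s_at probe sets may hold more than 1 transcript.

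The spread between replicate arrays was somewhat wider in the 124 than in probe sets at large. The median SD within a group was 0.14 at FL 10 dpa and 0.13 at FL 0 dpa, and 0.10 in both Fl groups, against 0.10, 0.11, 0.08 and 0.09 over all probe sets in the order FL 10, FL 0, Fl 0 and Fl 10 dpa. At FL 10 dpa the 3 arrays spanned a median of 0.26, at most 0.2 for 48 probe sets and over 0.5 for 22, and the widest span was 1.13. The lowest of the 3 was replicate 1 for 49 probe sets, replicate 2 for 37 and replicate 3 for 38. No array was thus low for the 124 as a whole. Deviations of the 124 from their group means had a mean pairwise correlation between probe sets of 0.03 over the 12 arrays, against 0.01 over all probe sets.

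Choosing probe sets by the same limits on 2 arrays per group left 1 array per group whose values the choice had not used. Without replicate 1 the limits took 130 probe sets, of which 106 were among the 124, without replicate 2 they took 120 (99 shared), and without replicate 3 they took 129 (97 shared). On the arrays left out the median rise in FL was 1.05, 1.21 and 1.13, against 1.17, 1.17 and 1.12 on the arrays used. It was above 0 for 129 of 130, 120 of 120 and 129 of 129 probe sets, where 43.3%, 45.2% and 42.1% of all probe sets lay above 0. It was at least 0.8 for 93, 99 and 103, where 7.87%, 8.77% and 8.35% of all probe sets had such a rise. At 10 dpa Fl lay below FL for 130, 120 and 128 of them, against 44.6%, 45.7% and 43.4% of all.

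Median changes in Fl on the arrays left out were -0.01, 0.09 and 0.04. All 3 limits together were met on the left-out arrays by 56 of 130, 57 of 120 and 70 of 129, against 0.542%, 0.656% and 0.62% of all probe sets. The sign of the FL change and of the line difference was thus the same on the left-out arrays for nearly every probe set chosen. A rise of at least 0.8 recurred for fewer, and all limits for roughly every other one. These counts describe how alike replicate arrays were for the probe sets of each choice. They are no test of the 124, whose own choice used every array. The 3 choices share arrays with one another and are not independent of each other. The deposited values were also normalized and centred before any array was left out. A difference common to all arrays of a group, whatever its source, would recur on the left-out array.

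As a description, limma over all probe sets called each of the 124 higher at FL 10 than at FL 0 dpa, with 17.5% of all probe sets called in that direction. It called each of them lower in Fl than in FL at 10 dpa (9.7% of all), and 111 of them for a smaller change in Fl than in FL (6.57% of all). Of the 124, 0 were called in the opposite direction of these comparisons, against 23.9%, 9.15% and 5.8% of all. Between the Fl stages 7 were called higher (13.9% of all) and 4 lower (18% of all), and between the lines at 0 dpa 9 higher in Fl (4.95% of all) and 4 lower (5.25% of all). The median SE of a difference was 0.111 and the highest 0.216. Nothing is read from these counts, since the choice rests on the same contrasts.

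The limits cut through a continuous range of values. Among the 124, 55 lay within 0.1 of at least 1 limit. Just inside the limit on the FL rise were 0.80 and 0.80, and just outside 0.79 and 0.79. For the change in Fl the nearest values were 0.40 and 0.39 in size inside and -0.41 and -0.41 outside. For the difference between lines they were -0.82 and -0.82 inside and -0.79 and -0.79 outside at the upper limit. At the lower limit they were -1.55 and -1.52 inside and -1.60 and -1.60 outside.

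Another 79 probe sets met both stage limits with Fl further below FL at 10 dpa, at differences of -1.60 or lower. Their median rise in FL was 2.55 and their median difference between lines -2.50. A further 119 met the stage limits with a smaller difference between lines than 0.8. The 124 are thus the middle range of 322 probe sets that rose in FL and stayed within 0.4 in Fl.

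Array-wide values moved with the groups. The SD over all probe sets was 0.49 to 0.50 on the FL 10 dpa arrays and 0.35 to 0.36 on the other 9. Hybridization control transcripts, added to each hybridization mix, averaged 0.41 at FL 0 dpa, 0.10 at FL 10 dpa, -0.24 at Fl 0 dpa and -0.06 at Fl 10 dpa. A 3′ minus 5′ difference bears on RNA integrity, but values here are relative to probe set medians, so only shifts between arrays can be read. The actin 3′ minus 5′ difference averaged 0.02 at FL 0 dpa, 0.39 at FL 10 dpa, -0.62 at Fl 0 dpa and 0.12 at Fl 10 dpa. For ubiquitin 11 it was 0.34, -0.47, -0.02 and 0.09 in the same order, and for the ss1 control it was -0.08, -0.28, 0.29 and 0.11. Both were lowest at FL 10 dpa, where that of actin was highest. Their part in the differences of the 124 was not tested.

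The number of probe sets in the group depended on which scaling was used. Centring each array on its median kept 120 of the 124. Quantile normalization was also repeated on the deposited values, which RMA had already quantile normalized and which are centred by probe set. On such values it gives the FL 10 dpa arrays the same spread as the others and so narrows their departures by construction. With it 56 probe sets met the limits, 23 of them among the 124 (18.5% of the 124 and 41.1% of the 56). The median rise of the 124 in FL was then 0.81. With each array centred on the hybridization controls, 76 of the 124 still met the limits and the median difference between lines at 0 dpa became 0.68, where the median of all probe sets shifted by 0.32 in FL between stages and by -0.18 in Fl.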

How the data were processed

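Total RNA of FL and Fl ovules at 0 and 10 dpa was labelled and hybridized to 12 Affymetrix cotton GeneChip arrays. Per the labels and the study's methods, the authors used GeneSpring GX 11.5 and RMA (background correction, quantile normalization, median polish), and deposited log2 values; each probe set was found centred on its median over the 12 arrays. How probe sets were left out before deposit is not given in the sources used here. The 98 AFFX control probe sets were put aside.

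Group means, differences (10 minus 0 dpa, Fl minus FL) and the rule of choice were computed in Python 3.11.15. limma 3.58.1 in R 4.3.3 was fitted to all 21791 probe sets with 1 mean per group, and Benjamini-Hochberg adjusted p of at most 0.01 at any fold was a call; the fit was tested on simulated data. SE is limma's and SD is over 3 arrays. The number of arrays limits the precision, and no array lies in a batch that the labels name.

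Members and lists were chosen with earlier results of these data known. Named were members described in the study's supplementary tables, members sharing a design cluster with a described probe set, and at most 2 unnamed identifiers, those with the widest gap and the largest FL rise among the rest; others are given by rank. The remaining 117 members have no description in these tables, so that gene lists by function and cell type could not be applied. No sequence of the probe sets was used here. Alternatives were the methods' unpaired t-test, robust variance, a replicate block, other scalings, medians for means, other limits and leaving out arrays.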

Additional observations from a re-analysis of the deposited data

How the results depend on the processing

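Replicate numbers did not pair arrays: deviations of same-numbered arrays correlated at -0.20 to 0.09 over 18 pairs, none over 0.1, and those of differently numbered arrays at -0.12 to 0.17. With the replicate block, 5 in place of 11 of the 124 probe sets were called between the Fl stages, 9 in place of 13 between the lines at 0 dpa and 107 in place of 111 for the interaction, while all 124 were called in FL and between the lines at 10 dpa. Repeated quantile normalization left 56 probe sets meeting the limits (23 of the 124), with median differences of 0.81 in FL and -0.75 between the lines at 10 dpa, and 21 calls in Fl; by its construction every array then has the same spread, and 57 of the 124 lost the FL rise and 73 the upper limit on the difference between lines. Centring on hybridization controls left 76 of the 124. Medians were then 1.44 in FL, -0.15 in Fl, -0.91 between the lines at 10 dpa and 0.68 at 0 dpa. It gave 112 calls at 0 dpa and 25 of 52 cluster neighbours called as a rise in FL (15 before). On the deposited values, without that centring, only 5 neighbours were called when restricted to the same sequence, where 17 were counted. On the same values 8 of 45 were called without those the study's tables describe, an alternative added after seeing the data. Centring on array medians gave 133 (120 shared) and medians for means 122 (105 shared). The methods' t-test called 88 of the 124 in FL between stages, 72 between the lines at 10 dpa, 5 between the Fl stages and 0 between the lines at 0 dpa, where 28 had an unadjusted p under 0.05 and limma called 13. Of 324 values of the members shown under alternatives, 314 were on the same side of the threshold, 10 lost the call by the t-test and 0 reversed. Under the 3 other scalings, an alternative chosen after seeing the data, the median SD of the 124 was 0.13 to 0.18, against 0.15. Leaving out arrays gave 115 to 138 probe sets and kept 97 to 121 of the 124. The calls were then 123 to 124 in FL and between the lines at 10 dpa, 100 to 108 for the interaction, and 14 to 16 among cluster neighbours. Between the lines at 0 dpa they numbered 5 to 13, namely 5 when replicate 2 of either line at 0 dpa was left out, and 7 and 8 when replicates 1 and 3 of Fl at 0 dpa were. Between the Fl stages they numbered 4 to 12, with 6, 6 and 7 without Fl 0 dpa replicates 1, 2 and 3, and 4 without Fl 10 dpa replicate 1 or 2.

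Since probe sets are centred, brightness and its distance from background are not known, and dim probe sets could not be set aside. With 3 arrays per group, the median SE of a difference was 0.111 and the highest 0.216. Differences of 1 SE in size are within the error, and larger ones can be too. Fl changes of 0.25 (SE 0.133) and -0.32 (SE 0.129) were not called by limma. Most members have no name, and 55 lie within 0.1 of a limit.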
